A study of Mus musculus with 12 samples.

Results

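The 41 genes described here encode proteins that build ribosomes in the nucleolus. They were taken by name from the gene column of the 12 count files, which hold 38127 genes, and all 41 were found and passed the low count filter of every comparison. Ribosome production starts when RNA polymerase I transcribes the ribosomal DNA into a long precursor RNA. Small nucleolar ribonucleoproteins (snoRNPs) guide the chemical modification of that precursor, and assembly factors fold, cut, and package it into a small and a large subunit. Dividing cells spend much of their RNA and protein synthesis on this pathway, and erythroid progenitors are known to be sensitive to its disturbance.

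The 12 libraries hold RNA of cells sorted from the fetal liver (FL) of C57BL/6 mice, with 3 libraries of each of 4 populations. P2 cells are Ter119-CD45-CD54-CD31-Kit+CD24+ cells at embryonic day (E) 14.5, which the study describes as erythroid progenitors. CD31+ cells are Ter119-CD45-CD54+CD31+ cells at E14.5, a gate for endothelial cells. The remaining gate, Ter119-CD45-CD54+CD31-, was sorted at E14.5 and again at E18.5. The study calls the E14.5 cells of this gate CD324+, after the epithelial cadherin of hepatoblasts. All cells came through the same digestion and the same exclusion of Ter119+ and CD45+ cells, and the study describes the E14.5 libraries as coming from independent litters. For the E18.5 libraries no source used here says this.

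Levels are CPM, the count of a gene scaled to a fixed library total, with library totals adjusted by the trimmed mean of M values (TMM) over all 12 libraries. Total counts ranged from 40714017 to 64368883 per library, and the lowest count of any member in any library was 188. The marker genes mostly followed the gates at E14.5. Summed over 10 erythroid markers, P2 cells had 2786 to 3074 CPM and the other 9 libraries 138 to 751 CPM. The 10 hepatoblast markers summed to 72579 to 83732 CPM in E14.5 CD54+CD31- cells and to 704 to 973 CPM in P2 and CD31+ cells. The 10 endothelial markers summed to 10163 to 10690 CPM in CD31+ cells, and P2 replicate 2 had 417 CPM of them beside 62 and 112 CPM in the other P2 libraries. The E18.5 libraries went against their label in part. They held 9763 to 21669 CPM of 10 lung epithelium markers, against 96.6 to 250.1 CPM in the E14.5 libraries. E18.5 replicate 1 stood apart, with 5558 CPM of the hepatoblast markers beside 36477 and 46966 CPM in replicates 2 and 3.

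**Figure D1:**
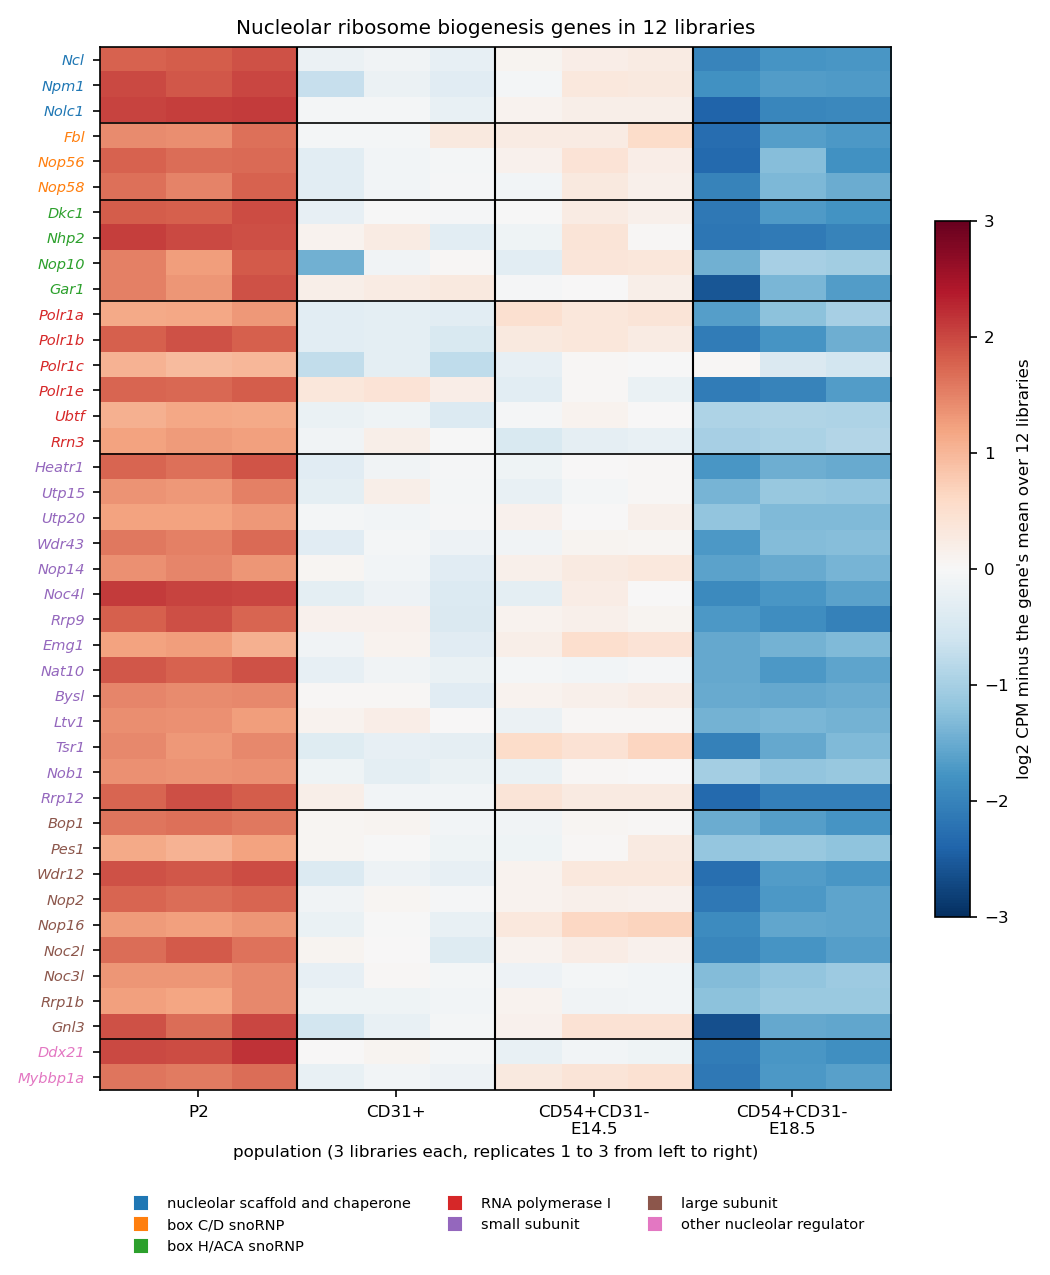
Level of each of the 41 genes (rows, grouped and coloured by role) in each of the 12 libraries (columns), as log2 CPM minus the gene's mean over the 12 libraries. All 41 genes had their highest mean level in P2 cells, and 40 had their lowest at E18.5. The share of all tested genes with these orders was not counted.

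Several of these genes also carry small nucleolar RNAs (snoRNAs) within their own transcription units, a feature that the choice of genes did not use. In GENCODE vM21, 7 of the 41 genes (17.1%) contain at least 1 annotated snoRNA on the same strand, beside 277 of 21718 protein-coding genes in the counts (1.28%). The 7 hosts are *Ncl*, *Nop56*, *Nop58*, *Dkc1*, *Gnl3*, *Tsr1*, and *Wdr43*, and together they hold 21 snoRNAs. Those named Snord belong to the box C/D class, which fibrillarin uses to methylate ribosomal RNA. The 4 shown here, from 4 hosts, are examples among the 9 that carry both boxes of the class. Capitals mark the C box (TGATGA, searched in the first 20 bases) and the D box (CTGA, searched in the last 16 bases), and positions are on GRCm38. Levels of the snoRNAs themselves were not analysed here.
Snord82, in *Ncl*, chr1:86356261-86356330, minus strand: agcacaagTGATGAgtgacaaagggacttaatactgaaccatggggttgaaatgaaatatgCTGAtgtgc
Snord110, in *Nop56*, chr2:130275506-130275573, plus strand: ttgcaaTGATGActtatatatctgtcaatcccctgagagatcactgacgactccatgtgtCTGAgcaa
Snord11, in *Nop58*, chr1:59704790-59704873, plus strand: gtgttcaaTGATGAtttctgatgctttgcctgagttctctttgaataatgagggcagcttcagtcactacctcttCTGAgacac
Snord69, in *Gnl3*, chr14:31014287-31014366, minus strand: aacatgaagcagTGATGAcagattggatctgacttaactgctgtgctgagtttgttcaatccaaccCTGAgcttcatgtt
Under the definition of both boxes used here, 9 of the 21 hosted snoRNAs had both.

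The E-box CACGTG, the preferred binding sequence of Myc and Max, was searched in the 250 bases before the start of each gene, on both strands, which read the same for this motif. RefSeq promoters (GRCm38.p6) were matched for 37 of the 41 genes, with 46 promoters in all, since some genes have several. A gene was counted if any of its promoters held the motif. *Fbl*, *Npm1*, *Bop1*, and *Rrp12* had no match. The E-box was found in 2 of the 37 (5.41%), beside 1033 of 10912 tested protein-coding genes (9.47%). It was found in 12 of 98 matched genes of other nucleolar factors (12.2%) and 5 of 58 of cytosolic ribosomal proteins (8.62%), lists described below. The 2 are shown because they alone of the 37 held it, with the E-box in capitals.
*Rrn3*, chr16:13780449-13780698, plus strand, with E-boxes starting 215 and 48 bases before the start: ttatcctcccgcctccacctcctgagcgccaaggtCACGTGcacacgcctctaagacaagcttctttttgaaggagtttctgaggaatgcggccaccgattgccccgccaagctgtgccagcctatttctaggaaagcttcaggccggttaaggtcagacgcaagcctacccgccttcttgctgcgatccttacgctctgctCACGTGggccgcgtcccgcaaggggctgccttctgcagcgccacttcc
*Nop2*, chr6:125131633-125131882, plus strand, with an E-box starting 60 bases before the start: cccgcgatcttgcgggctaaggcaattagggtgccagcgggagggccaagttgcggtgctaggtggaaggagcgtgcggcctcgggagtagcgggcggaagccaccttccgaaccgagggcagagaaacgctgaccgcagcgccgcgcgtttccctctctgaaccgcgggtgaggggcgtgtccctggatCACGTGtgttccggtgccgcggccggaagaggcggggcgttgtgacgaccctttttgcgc
The letters CCGGAAG, part of the site of ETS factors, were added after the data were seen. They were found on either strand for 8 of the 37 genes (21.6%) and 14.2% of tested protein-coding genes. The shares were 36.7% for other nucleolar factors and 31.0% for cytosolic ribosomal proteins. TATAAA, added in the same way, was found for 5.41% of the 37 genes and 8.48% of tested protein-coding genes. The median GC content of the window was 59.0% over the 46 promoters of the 37 matched genes. It was 59.2% over the 13973 promoters of tested protein-coding genes.

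The first comparison asked how P2 cells differ from the other populations sorted at the same age. All 41 genes were higher in P2 cells than in E14.5 CD54+CD31- cells (edgeR's quasi-likelihood test over 15461 genes, adjusted p below 0.05), where 33.8% of all tested genes were called higher and 36.1% lower. The median log2 fold change of the 41 genes was 1.51 (range 0.73 to 2.16), beside -0.01 for all tested genes, and 37 were over 2-fold higher. In no case did the 3 P2 libraries overlap the 3 CD54+CD31- libraries. Non-overlap was not counted over all tested genes, so this count has no background and is only a description. Of 76 tested cytosolic ribosomal protein genes, a list that moved in the same direction, 71 did not overlap either. The 75th and 95th percentiles of the log2 fold change of all tested genes were 0.76 and 1.89. All 41 were also higher in P2 than in CD31+ cells, where 34.3% of tested genes were called higher and 39.4% lower. There the median was 1.74 (range 1.14 to 2.34), all 41 exceeded 2-fold, and none overlapped. Of the 76 ribosomal protein genes, 73 did not overlap either. The same percentiles of all tested genes were 0.75 and 1.78. Both comparisons use the same 3 P2 libraries. The summed level of the 41 genes was 21189 ± 834 CPM in P2 cells, 5634 ± 283 in CD31+ cells, and 7038 ± 426 in E14.5 CD54+CD31- cells (SD, n = 3 libraries each). In bulk RNA, fewer cells of a type and less RNA per cell cannot be told apart.

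**Figure D2:**
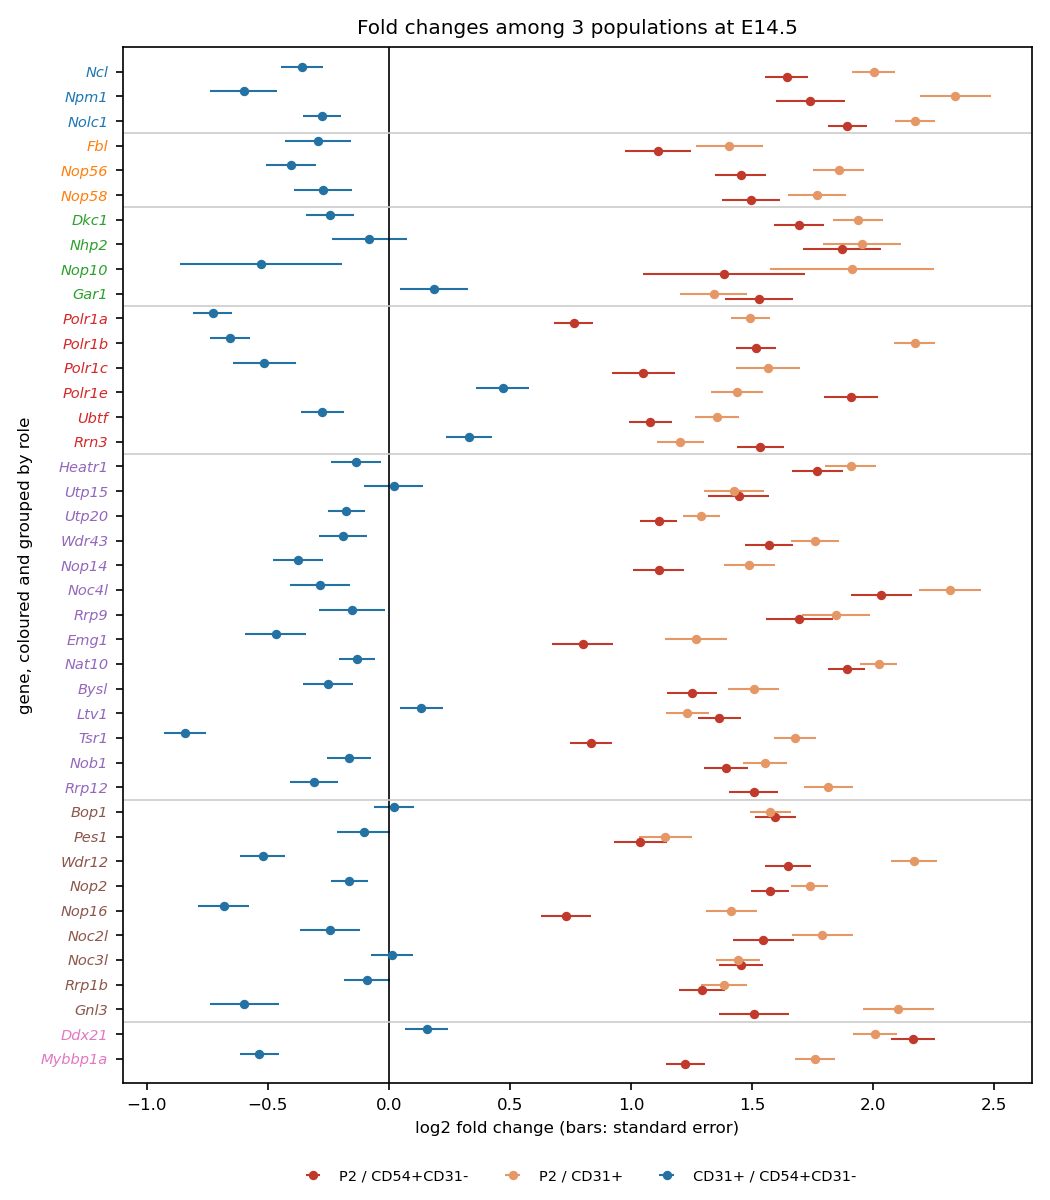
Log2 fold change with its standard error for each of the 41 genes (rows, by role) in the 3 comparisons at E14.5, 3 libraries per population. The P2 comparisons lie between 0.73 and 2.34, and the comparison of CD31+ with CD54+CD31- cells lies between -0.84 and 0.47.

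Among the nucleolar scaffold and chaperone genes were the 2 with the highest CPM in P2 cells, *Ncl* and *Npm1*. *Ncl* (chr1:86344719-86359400) encodes nucleolin, which binds the precursor RNA and organizes ribosomal DNA chromatin. It had 8567, 8824, and 9433 CPM in the P2 libraries, 2205, 2324, and 2119 in CD31+ cells, and 2632, 2867, and 2984 in E14.5 CD54+CD31- cells. The P2 libraries were far above the rest, and the other populations did not overlap each other either. *Ncl* alone held 35.0 to 42.6% of the summed level of the 41 genes in each of the 12 libraries.
*Npm1* (chr11:33152287-33163206), the gene of the nucleolar chaperone nucleophosmin, had the largest change between P2 and CD31+ cells. Its levels were 1915, 1770, and 1948 CPM in P2, 299, 425, and 381 in CD31+, and 467, 605, and 594 in CD54+CD31- cells. The fold was 5.06 over CD31+ cells (log2 2.34 ± 0.15 SE, adjusted p = 2.7e-07, edgeR). *Nolc1* (chr19:46075863-46085530), whose product shuttles between nucleolus and Cajal bodies and binds snoRNPs, had 970.4, 1014, and 1020.4 CPM in P2, 229, 228, and 204 in CD31+, and 256, 271, and 272 in CD54+CD31- cells. It was 4.50-fold and 3.71-fold higher in P2 cells, which lay far above both. Per kilobase of the union of exons, P2 cells had 878 CPM of *Ncl* and 705 of *Npm1*, but per kilobase of the longest coding transcript 1090 and 1150, so the order of these levels depends on the length used. The 2 were the highest of the 41 on both scales.

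The genes of the snoRNP proteins were all higher in P2 cells than in the other E14.5 cells, by unequal amounts. The box C/D genes are *Fbl*, the methyltransferase fibrillarin, and its partners *Nop56* and *Nop58*. Their levels were 2.16-fold (*Fbl*) to 2.82-fold (*Nop58*) those of CD54+CD31- cells. *Nop58* had 720, 647, and 776 CPM in P2, 184, 216, and 224 in CD31+, and 218, 279, and 254 in CD54+CD31- cells. The latter populations overlapped, and P2 cells lay above both. The box H/ACA genes encode the pseudouridine synthase dyskerin (*Dkc1*) and its partners *Nhp2*, *Nop10*, and *Gar1*, a set also bound to telomerase RNA. *Dkc1* had 327, 322, and 362 CPM in P2, 78.3, 92.1, and 91.4 in CD31+, and 92.6, 111, and 105 in CD54+CD31- cells, again with P2 cells clear of both. *Nop10* and *Gar1* had the largest coefficients of variation among P2 libraries of the 41 genes, 20.1% and 21.3%, where the median was 4.93%.

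The RNA polymerase I genes were between 1.70-fold (*Polr1a*) and 3.75-fold (*Polr1e*) higher in P2 than in CD54+CD31- cells. *Ubtf*, the factor that keeps ribosomal DNA open and assembles the initiation complex, had 483, 515, and 507 CPM in P2, 200, 210, and 174 in CD31+, and 226, 245, and 232 in CD54+CD31- cells. These P2 levels were 2.11-fold above CD54+CD31- cells and 2.56-fold above CD31+ cells. *Polr1e*, a subunit of the enzyme's detachable heterodimer, had 42.4, 41.9, and 44.6 CPM in P2, 15.9, 16.8, and 14.6 in CD31+, and 10.1, 12.9, and 11.0 in CD54+CD31- cells. The 3 populations did not overlap, and P2 cells were above CD54+CD31- cells (log2 1.91 ± 0.11 SE, adjusted p = 1.2e-07, edgeR), among the 3 largest changes of that comparison. The largest subunit gene *Polr1a* was only 1.70-fold higher in P2 than in CD54+CD31- cells, and 2.81-fold higher than in CD31+ cells. *Rrn3*, whose product carries the polymerase to the promoter and whose own promoter held the 2 E-boxes above, was 2.90-fold and 2.30-fold higher.

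All 14 small subunit genes and all 9 large subunit genes were higher in P2 cells in both comparisons. *Noc4l*, the partner of Nop14 in small subunit assembly, had 139, 131, and 130.5 CPM in P2, 26.5, 29.0, and 24.2 in CD31+, and 26.5, 37.9, and 32.3 in CD54+CD31- cells. It was 4.10-fold and 4.99-fold higher in P2 cells, the second largest change in each comparison. *Wdr43*, a processome subunit with the highest CPM in its group, uncorrected for length, had 538, 514, and 584 CPM in P2, 143, 173, and 163 in CD31+, and 166, 189.5, and 188 in CD54+CD31- cells. P2 cells stood apart, and the other populations overlapped. *Nat10*, the cytidine acetyltransferase of the small subunit RNA, was 3.71-fold higher than in CD54+CD31- cells, while *Emg1*, a methyltransferase, and *Tsr1*, a late assembly factor, were 1.74-fold and 1.78-fold higher.
Among large subunit genes *Noc2l* had the highest CPM, uncorrected for length, with 535, 602, and 519 CPM in P2, 178, 169, and 128 in CD31+, and 181, 196, and 183 in CD54+CD31- cells. *Nop16*, another early large subunit factor, had the smallest change of all 41 genes against CD54+CD31- cells, 1.66-fold. *Nop2*, the methyltransferase gene whose promoter is shown above, was 2.98-fold higher than in CD54+CD31- cells and 3.33-fold higher than in CD31+ cells. *Ddx21*, an RNA helicase that senses RNA polymerase I and II transcription, showed the largest change against CD54+CD31- cells. It had 1087, 1072, and 1240 CPM in P2, 278, 294, and 267 in CD31+, and 236, 261, and 253 in CD54+CD31- cells, a 4.48-fold difference (log2 2.16 ± 0.09 SE, adjusted p = 1.1e-08, edgeR). Its P2 levels were the only ones above 300 CPM.

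**Figure D3:**
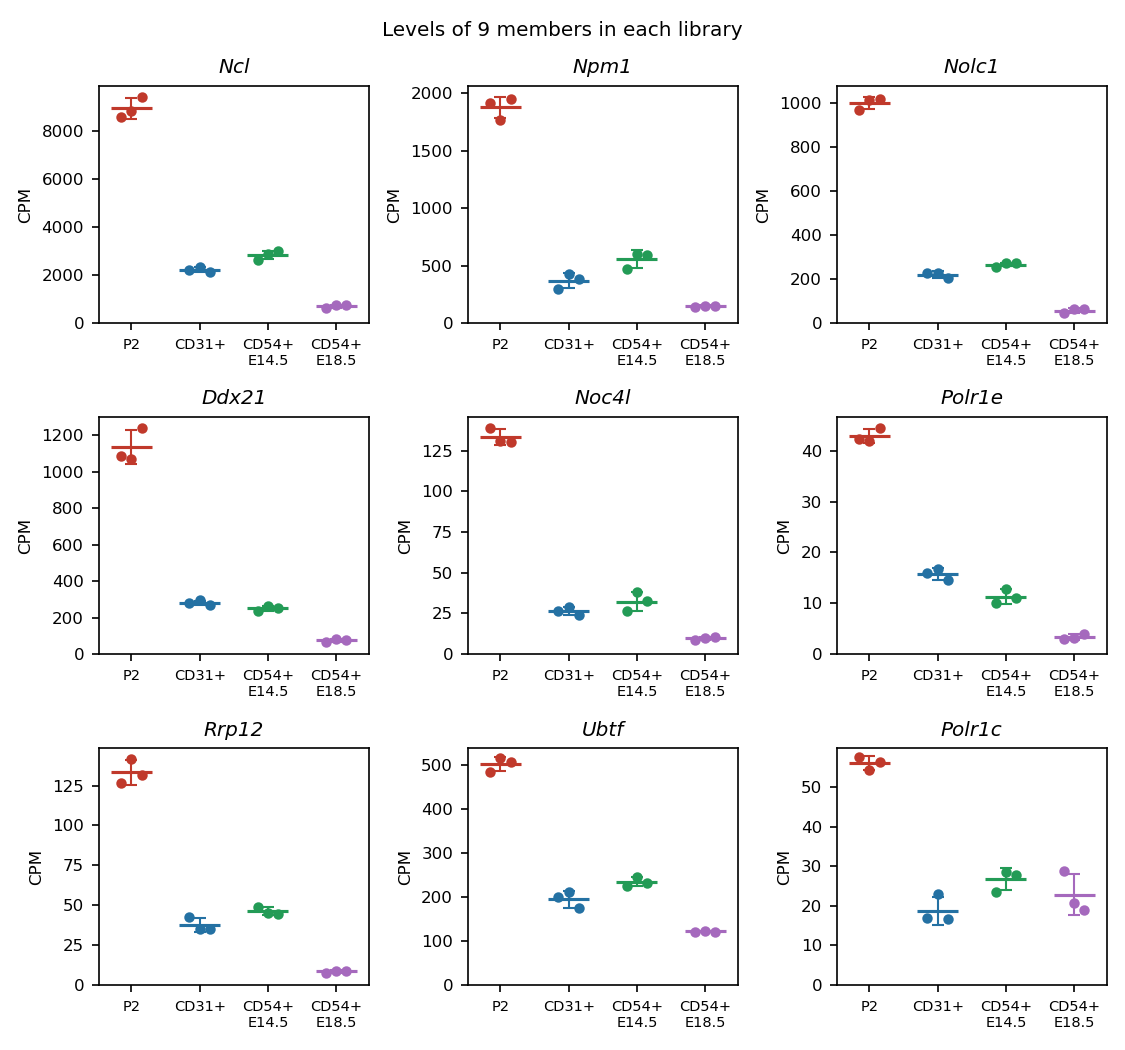
CPM of 9 of the 41 genes in each library (points), with the mean (line) and SD (bar) of the 3 libraries per population. The P2 libraries are the highest in each panel, and *Polr1c* is the gene whose E18.5 libraries overlap those of E14.5 CD54+CD31- cells.

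All 41 calls in both P2 comparisons held in each of the 15 alternatives, among them leaving out P2 replicate 2. The deposited normalization factors of the authors, in place of TMM, moved the median of all genes (log2) from -0.01 to -0.27 between P2 and CD54+CD31- cells and from -0.13 to -0.50 between P2 and CD31+ cells. With them, 38.2% and 33.9% of the called genes were higher, against 48.3% and 46.6% with TMM. Other factors move all genes of a comparison by nearly the same amount. The median of the 41 genes relative to that of all genes therefore had to stay nearly the same. It was 1.52 in the first comparison and 1.87 in the second with either scaling, which is no test of the scaling.

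CD31+ cells differed little from E14.5 CD54+CD31- cells in these genes. In CD31+ cells 16 of the 41 were lower, 2 were higher, and 23 were not called, where 34.0% of all tested genes were called lower and 31.7% higher. The median log2 fold change was -0.25 (range -0.84 to 0.47), beside -0.03 for all tested genes, and none of the 41 differed by more than 2-fold. The 16 lower genes were *Ncl*, *Npm1*, *Nolc1*, *Nop56*, *Polr1a*, *Polr1b*, *Polr1c*, *Ubtf*, *Nop14*, *Emg1*, *Tsr1*, *Rrp12*, *Wdr12*, *Nop16*, *Gnl3*, and *Mybbp1a*.
*Tsr1* changed most, with 32.9, 35.9, and 35.1 CPM in CD31+ and 62.1, 57.3, and 66.0 in CD54+CD31- cells (log2 -0.84 ± 0.09 SE, adjusted p = 1.0e-05, edgeR). The libraries did not overlap, but 32.3% of the exon bases of *Tsr1* overlap the gene *Srr* on the opposite strand, and the sources used here do not state whether the counting used strand. *Polr1a* had 117, 119, and 117 CPM in CD31+ cells and 205, 185, and 192 in CD54+CD31- cells (log2 -0.73 ± 0.08 SE), and *Nop16* had 34.7, 40.0, and 34.5 against 49.9, 61.2, and 63.4 (log2 -0.68 ± 0.10 SE).
RNA polymerase I genes moved in opposite directions here. *Polr1a*, *Polr1b*, *Polr1c*, and *Ubtf* were lower in CD31+ cells, whereas *Polr1e* (log2 0.47 ± 0.11 SE, adjusted p = 0.0032) and *Rrn3* (log2 0.33 ± 0.10 SE, adjusted p = 0.011, both edgeR) were higher. *Rrn3* had 53.6, 65.6, and 57.8 CPM in CD31+ and 42.4, 47.8, and 49.8 in CD54+CD31- cells, without overlap.

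These differences were small enough to depend on the scaling and on single libraries. Of the 18 calls, 11 held in each of the 15 alternatives, those of *Polr1e*, *Tsr1*, *Polr1a*, and *Nop16* among them, and that of *Rrn3* did not (adjusted p = 0.15 without CD31+ replicate 2). Without CD31+ replicate 2, 25 genes were lower and 1 higher. With the replicate number as a block, *Dkc1*, *Fbl*, and *Nop58* were called lower as well, for 19 lower genes and 2 higher. As a share of raw counts, with no TMM scaling, the 41 genes together were higher in CD31+ cells (0.603 to 0.637%) than in CD54+CD31- cells (0.491 to 0.589%), the opposite direction from the summed CPM. The TMM factors ranged from 0.750 to 0.805 in CD54+CD31- and were at least 1.07 in CD31+ libraries.

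The same gate was compared between the ages. In the CD54+CD31- gate, 40 of the 41 genes were lower at E18.5 than at E14.5 and none was higher (edgeR over 15863 genes in the 6 libraries), where 33.5% of tested genes were called lower and 35.9% higher. The median log2 fold change was -1.57 (range -2.27 to -0.04), beside 0.03 for all tested genes. Of these, 34 fell by more than 2-fold, and for 40 the libraries of the 2 ages did not overlap. Non-overlap was not counted over all tested genes, so here too it is only a description. Of 76 tested cytosolic ribosomal protein genes, which also fell, 74 did not overlap either. The 5th and 25th percentiles of the log2 fold change of all tested genes were -2.01 and -0.82. The summed level fell from 7038 ± 426 to 1987 ± 187 CPM (SD, n = 3 libraries each). Age and the make-up of the sorted cells cannot be told apart here, since all 10 lung epithelium markers, all 10 endothelial markers, and all 10 stellate and mesenchymal markers were higher at E18.5, and all 10 proliferation markers were lower. Of 10 erythroid markers 8 were lower and 0 higher (median -1.80, summed 482 to 751 CPM at E14.5 and 138 to 274 at E18.5), and of 10 hepatoblast markers 4 were lower and 2 higher (median -1.32).

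*Rrp12*, a factor for maturation and export of both subunits, fell most. It had 7.37, 9.07, and 9.0 CPM at E18.5 and 49.0, 45.2, and 44.8 at E14.5, a 4.82-fold decrease (log2 -2.27 ± 0.12 SE, adjusted p = 2.1e-05, edgeR). *Nolc1* had 45.1, 62.0, and 62.8 CPM at E18.5 and 256, 271, and 272 at E14.5 (4.14-fold lower). *Fbl* had 2.91, 4.53, and 4.29 CPM at E18.5 and 16.86, 16.96, and 20.82 at E14.5 (4.10-fold lower). The ages were far apart for all 3 genes. Reads of *Fbl* may be shared with copies, since 690 bases of its transcript match a transcript of the protein-coding gene *Tulp4* at 99.6% identity and 984 bases match the pseudogene Gm5812 at 96.8%.
The genes that fell least were in the RNA polymerase I group. *Ubtf* had 121, 124, and 121 CPM at E18.5, 1.69-fold lower than at E14.5 (log2 -0.76 ± 0.08 SE). *Rrn3* had 29.1, 30.1, and 31.5 CPM (1.36-fold lower, log2 -0.44 ± 0.08 SE, adjusted p = 0.0030, edgeR), a call lost with the authors' factors (adjusted p = 0.079). *Polr1c*, whose product is shared by RNA polymerases I and III, was the gene not called. Its levels were 28.8, 20.7, and 19.1 CPM at E18.5 and 23.6, 28.7, and 27.9 at E14.5, which overlapped (log2 -0.04 ± 0.18 SE, adjusted p = 0.87, edgeR). In the same enzyme *Polr1a* and *Polr1b* fell 2.84-fold and 3.66-fold. Over all 4 populations *Polr1c* also had the smallest ratio of the highest to the lowest mean, 2.98, followed by *Ubtf* with 4.12.

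E18.5 replicate 1, which had the fewest hepatoblast transcripts, also had the lowest level of the 3 E18.5 libraries for 32 of the 41 genes and the highest for 6, *Polr1c* among them. Without it, 40 genes were again lower and 0 higher, with a median of -1.51. Proliferation markers summed to 361 CPM in that library and to 920 and 869 CPM in the other E18.5 libraries, against 2792 to 3253 CPM at E14.5. The part of these cell differences in the decrease was not tested. Apart from *Rrn3* with the authors' factors, the 40 calls held in each of the 14 alternatives.

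**Figure D4:**
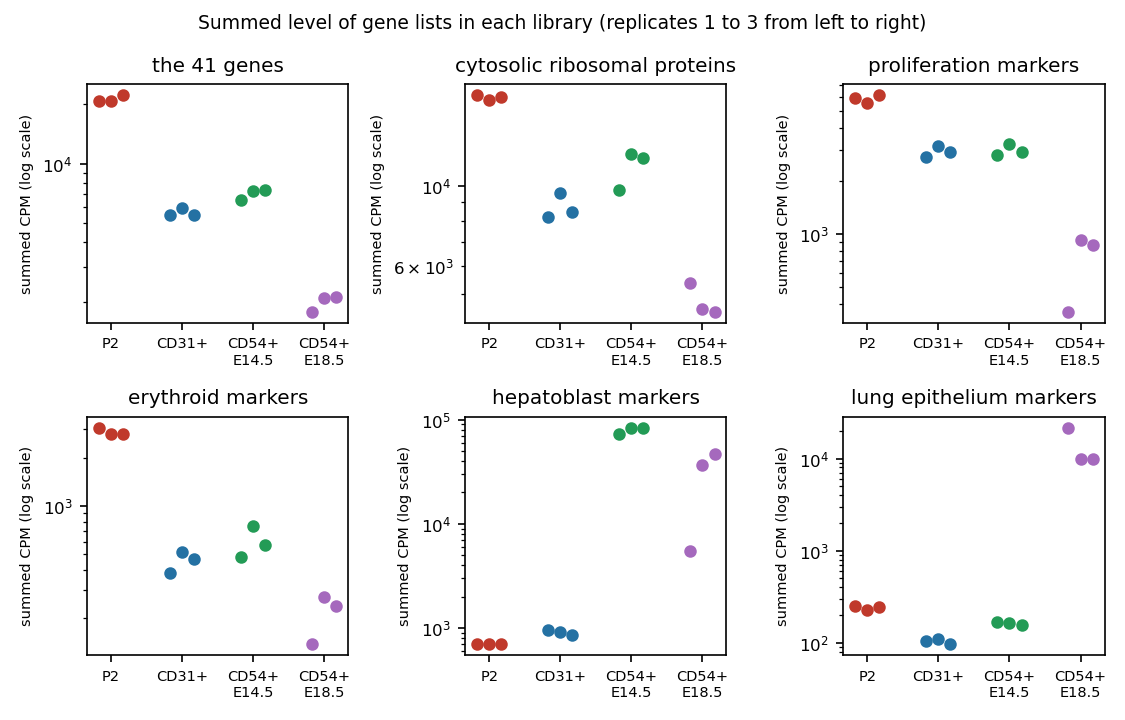
Summed CPM (log axis) of the 41 genes and of 5 other gene lists in each library, replicates 1 to 3 from left to right in each population. The 41 genes sum to 20703 to 22152 CPM in P2 cells and 1771 to 2102 CPM at E18.5, and E18.5 replicate 1 is apart from replicates 2 and 3 in hepatoblast and lung epithelium markers.

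The balance of partners within complexes was compared as the log2 ratio of length-scaled levels in each library, a description with no test. *Pes1* and *Bop1*, which act with *Wdr12* in the PeBoW complex of the large subunit, had a *Pes1* to *Bop1* ratio of -1.40 to -1.17 in P2 cells, -0.91 to -0.78 in CD31+ cells, -0.81 to -0.56 in E14.5 CD54+CD31- cells, and -0.47 to -0.24 at E18.5. P2 cells thus held the least *Pes1* for their *Bop1* and E18.5 cells the most. The *Wdr12* to *Bop1* ratio did not follow this order. It was -1.86 to -1.71 in P2 cells and -1.87 to -1.81 in E14.5 CD54+CD31- cells, which overlapped. In CD31+ cells it was lower, at -2.55 to -2.26, as it was at E18.5, at -2.87 to -2.06. *Pes1* has a pseudogene copy, Gm5910, at 95.5% identity over 1771 bases. In the box H/ACA set, the *Nop10* to *Dkc1* ratio was 0.49 to 0.54 at E18.5 and at most -0.04 in every E14.5 library. The *Gar1* to *Dkc1* ratio was -0.57 to -0.39 in CD31+ cells beside -1.30 to -0.88 in P2 cells. It was -1.08 to -0.83 in E14.5 CD54+CD31- cells, which overlapped P2 cells. At E18.5 it was -1.24 to -0.49, which overlapped all E14.5 populations. The *Nhp2* to *Dkc1* ratio overlapped among the E14.5 populations. In the box C/D set, *Nop58* to *Fbl* was 2.76 to 2.90 in P2 cells and 2.90 to 2.97 at E18.5, above the 2.33 to 2.62 of CD31+ cells and the 2.25 to 2.69 of E14.5 CD54+CD31- cells. *Nop56* to *Fbl* was 2.68 to 2.98 in P2 cells, above the 2.27 to 2.59 of CD31+ cells, and overlapped the 2.26 to 2.78 of E14.5 CD54+CD31- cells and the 2.53 to 2.99 of E18.5. *Fbl* and *Nop56* also have near-identical copies, so these ratios are less certain. Their size depends on the length used. In P2 cells *Fbl* had 9.48 CPM per kilobase of the union of exons and 33.3 per kilobase of the longest coding transcript.

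The other genes of the pathway showed similar directions with smaller medians. Of 120 other nucleolar factors, 118 were tested. Between P2 and CD54+CD31- cells 116 were higher and none lower, with a median log2 fold change of 1.14. Between P2 and CD31+ cells 117 were higher and none lower, with a median of 1.33. Between CD31+ and CD54+CD31- cells 15 were higher and 45 lower (median -0.15), and at E18.5 1 was higher and 104 were lower than at E14.5 (median -1.07). In P2 cells the largest changes against CD54+CD31- cells were those of *Utp14a* (log2 2.19 ± 0.09 SE), a processome subunit, *Taf1c* (2.08 ± 0.19), a subunit of the RNA polymerase I selectivity factor, and *Naf1* (1.92 ± 0.14), an H/ACA assembly factor. *Taf1c* was also among the 3 largest against CD31+ cells, with *Mrto4* (2.15 ± 0.12 SE) and *Rpf2* (2.11 ± 0.15 SE), both large subunit factors. *Rcl1*, a small subunit processome factor, was an exception. It had 116 ± 6.71 CPM in P2 and 131 ± 5.0 in E14.5 CD54+CD31- cells (log2 -0.19, not called) but 29.2 ± 1.55 in CD31+ cells and 24.2 ± 14.4 at E18.5 (SD, n = 3 libraries each). *Exosc7*, a subunit of the RNA exosome, was the factor that rose at E18.5 (log2 0.79 ± 0.09 SE, adjusted p = 0.00025, edgeR).

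Genes of the finished ribosome and of the other RNA polymerases moved less in P2 cells. Of 76 tested cytosolic ribosomal protein genes, 69 were higher in P2 than in CD54+CD31- cells (median 0.65) and 73 higher than in CD31+ cells (median 1.13), with none lower in either. Of 17 genes of RNA polymerases II and III, 16 were higher in each comparison (medians 0.81 and 1.02). At E18.5, 73 of the ribosomal protein genes were lower (median -1.14) and 13 of the polymerase genes (median -0.89). Of 10 proliferation markers, 9 were higher in P2 cells in each comparison (medians 0.85 and 0.98). All 10 fell at E18.5 with a median of -2.44, and their part in the change of the 41 genes was not tested.

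**Figure D5:**
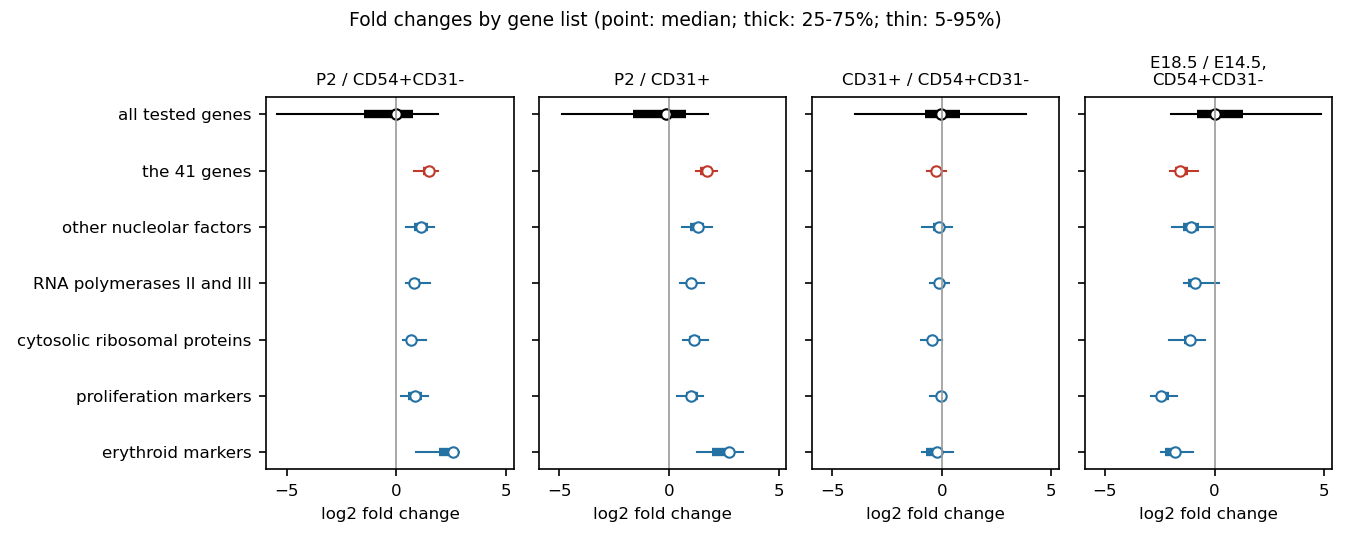
Log2 fold changes of all tested genes and of 6 gene lists in the 4 comparisons, as the median (point), the middle 50% (thick bar), and the 5th to 95th percentile (thin bar). The 41 genes have medians of 1.51, 1.74, -0.25, and -1.57. Their bars are narrow beside those of all tested genes, as are the bars of the other gene lists.

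Myc, a transcription factor known to drive many of these genes, and its network were listed separately. *Myc* had 248, 257, and 257 CPM in P2, 93.7, 99.5, and 120 in CD31+, 43.5, 50.4, and 49.8 in E14.5 CD54+CD31- cells, and 8.62, 21.0, and 22.3 at E18.5. No 2 populations overlapped, and the order from high to low was P2, CD31+, E14.5 CD54+CD31-, and E18.5 cells. On the same scale, the summed CPM of the 41 genes had CD31+ below E14.5 CD54+CD31- cells, unlike *Myc*. Their share of raw counts, given above, had CD31+ cells higher, but that scale was not used for *Myc*. A link between *Myc* and the levels of the 41 genes was not tested. *Myc* was higher in P2 than in CD54+CD31- cells (log2 2.39, adjusted p = 2.0e-08), higher in CD31+ than in CD54+CD31- cells (log2 1.12, adjusted p = 5.9e-06), and lower at E18.5 (log2 -1.29, adjusted p = 0.011, all edgeR). *Mycn* ran the other way among E14.5 cells, with 0.51 to 1.04 CPM in P2 cells and 20.8 to 22.7 CPM in CD54+CD31- cells. *Max*, the partner of Myc, was higher in P2 cells (log2 1.27 against CD54+CD31- cells), as was *Mga* (log2 0.56). *Mxd4*, which encodes a repressor that competes for Max, had 4.52 to 8.55 CPM in P2 cells, 20.2 to 22.9 in E14.5 CD54+CD31- cells, 77.1 to 96.5 in CD31+ cells, and 80.7 to 120 at E18.5. Of the 11 network genes 4 were higher and 4 lower in P2 than in CD54+CD31- cells, beside 33.8% and 36.1% of all tested genes. The list holds *Myc* and *Max* as well as the repressor gene *Mxd4*. This count therefore does not show how the network relates to the 41 genes.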

How the data were processed

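RNA of 12 sorted samples was analysed as single-end reads from rRNA-depleted SMARTer Pico libraries. Per the labels and the methods, the authors trimmed reads with cutadapt 1.11, aligned them to GRCm38 with STAR 2.5.0a, and counted them with featureCounts 1.4.6-p3. The strand setting, the treatment of reads with several alignments, and the annotation are not given in the sources used here. The deposited counts are whole numbers per gene, and the deposited score beside them is the count times 1 DESeq2 factor per library, used here only to read the authors' factors. Total counts were 40714017 to 64368883, so the number of libraries, 3 per population, limits precision more than depth. Where E18.5 libraries were not from separate animals, p-values there would measure technical spread only. No replicate pair was a duplicate, since counts differed by at least 38.6 in chi-square for each degree of freedom.

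Counts were tested in R 4.3.3 with edgeR 4.0.16 (TMM, filterByExpr, quasi-likelihood test, Benjamini-Hochberg over all tested genes, adjusted p below 0.05), with no covariate beside population. One model held the 9 libraries of E14.5, and another the 6 of the CD54+CD31- gate. SE values come from the fold change and the F statistic. Levels use TMM over all 12 libraries, so ratios of levels differ slightly from fitted folds. Same-numbered CD31+ and E14.5 CD54+CD31- libraries deviated together (r = 0.33, 0.26, and 0.12 across genes), so the replicate number may pair them there. In no other comparison did all pairs exceed 0.1. The main model did not use this pairing, and the replicate block was run as an alternative. The alternatives were DESeq2 1.42.0, its size factors, the authors' factors, all genes kept, only genes with 10 or more counts throughout, genes above 1% of a library left out, all 12 or only the 6 compared libraries, the block, and each library left out. The test was also tried on simulated counts that gave all genes the same dispersion, unlike these libraries. No result here rests on that trial. Coordinates, exon lengths, and snoRNAs are from GENCODE vM21 (37932 of 38127 identifiers matched), and copies of at least 200 bases and 95% identity were sought with minimap2. Protein features were not analysed here.

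The members and the other lists were chosen with earlier results of these data known. Values per library are given for the highest member of each role, the 3 largest changes per direction without overlap, and the 2 members with the flattest means.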

Additional observations from a re-analysis of the deposited data

How the results depend on the processing

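All counts of higher and lower genes in the P2 and E18.5 comparisons stayed within 1.5 times their value in each alternative, and the replicate block changed no call other than those of *Dkc1*, *Fbl*, and *Nop58* given above. Its values were 41 higher genes with a median of 1.51 (P2 against CD54+CD31-), 41 with 1.74 (P2 against CD31+), and 40 lower with -1.57 (E18.5). Medians of the 41 genes moved by more than the SD between replicate libraries in these cases. With the authors' factors they were 1.24 (P2 against CD54+CD31-), 1.37 (P2 against CD31+), -0.15 (CD31+ against CD54+CD31-), and -1.33 (E18.5). With a minimum of 10 counts in every library they were 1.41, 1.60, and -1.42 in the first, second, and last of these. With no filter the second was 1.78, and with all 12 libraries in one fit the last was -1.76. Leaving out 1 library gave 1.64 to 1.84 for P2 against CD31+ cells and -0.37 to -0.23 for CD31+ against CD54+CD31- cells.

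Between CD31+ and CD54+CD31- cells, 4 genes were higher with the authors' factors and 1 with no filter, and leaving out 1 library gave 1 to 2 higher and 16 to 25 lower genes. Genes near 0 in that comparison changed sign. With the authors' factors *Nhp2* was 0.028, *Pes1* 0.0067, and *Rrp1b* 0.014, and with no filter *Utp15*, *Bop1*, and *Noc3l* were -0.028, -0.027, and -0.035. Over left-out libraries *Utp15* ranged from -0.19 to 0.13, *Bop1* from -0.095 to 0.035, *Noc3l* from -0.13 to 0.087, and *Pes1* from -0.21 to 0.0016. At E18.5 *Polr1c* was 0.20 with the authors' factors, 0.0043 with abundant genes left out, 0.11 with the count minimum, and -0.26 to 0.078 over left-out libraries. None of these was called. The cause was not tested in any case.

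Of the 41 genes, 6 (*Ddx21*, *Fbl*, *Nop56*, *Npm1*, *Pes1*, and *Wdr12*) have near-identical copies elsewhere. Exons of 18 overlap a gene on the opposite strand, most in *Tsr1* (32.3%) and *Noc2l* (20.9%). Exons of 4 (*Ncl*, *Nop56*, *Nop58*, and *Gnl3*) overlap snoRNAs on the same strand, which are not among the counted genes. The counts of all these genes are less certain. With 3 libraries per population, small differences may have been missed.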
